A study of Mus musculus with 9 samples.

Results

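The genes described are 9 that encode NMDA receptor subunits and metabotropic glutamate receptors: Grin1, Grin2a, Grin2b, Grin2d, Grin3a, Grm2, Grm3, Grm5 and Grm7. They were chosen by symbol, and all 9 were found among the 21210 genes of the deposited table. Lateral cortex was taken from C57BL/6 mice on embryonic day 14.5, and poly-A RNA of sorted cells was sequenced, with 3 biological replicate libraries for each of 3 stages of neuron production. Proliferating progenitors (PP) were negative for the red Btg2 reporter (Btg2 marks progenitors about to produce neurons); differentiating progenitors (DP) were positive for it; neurons (N) were positive for a green reporter of Tubb3, a neuronal tubulin. All 3 groups came from embryos that carried both reporters. The genotype label names a green protein for both, whereas the sample titles name a red one for Btg2, and groups are taken here from the titles and from the labels of cell type. Each library came from a pool of more than 3 embryos of different litters, so a value is an average over animals and over all cells that passed the gate.

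NMDA receptors are glutamate-gated cation channels that let calcium in and that also need glycine or D-serine bound. Every functional receptor holds the GluN1 subunit, encoded by Grin1, joined to GluN2 subunits (Grin2a to Grin2d) or GluN3 subunits (Grin3a and Grin3b), and the GluN2 type sets conductance, magnesium block and channel kinetics. In rodent cortex Grin2b is the main GluN2 gene before birth and Grin2a rises after it. Metabotropic glutamate receptors signal through G proteins instead: group I (Grm5 among them) through Gq and phospholipase C, group II (Grm2, Grm3) and group III (Grm4, Grm6, Grm7, Grm8) through Gi and Go, which lower cyclic AMP.

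Values are the authors' normalised read counts per gene and library, which sum to between 17531558 and 22076409. One read was worth an estimated 0.799 to 1.385 of these units, so a value below 5 rests on a handful of reads. The sort genes followed the labels in level though not as on and off. Btg2 averaged 8440 ± 1234, 16213 ± 3279 and 3111 ± 406 normalised read counts and Tubb3 1742 ± 695, 11248 ± 1714 and 46276 ± 5549 in PP, DP and N (SD, n = 3 each). Summed over 7 neuron markers, the level was 2497 to 6726 in PP, 34748 to 42014 in DP and 151093 to 186119 in N. Summed over 8 radial glia markers it was 104199 to 122277, 46275 to 69360 and 5732 to 7096. Markers of other cells moved with the stages too: 9 interneuron markers summed to 88 to 985 in PP, 449 to 2926 in DP and 7507 to 8717 in N, and 6 Cajal-Retzius cell markers to 90 to 125, 1031 to 1306 and 17432 to 20377. In N, 9 of 9 interneuron and 6 of 6 Cajal-Retzius markers were higher than in PP, against 32.2% of all genes tested. Between N and DP, 6 of 9 interneuron markers were higher and 3 did not pass. There 5 of 6 Cajal-Retzius markers were higher and 1 was lower, against 27.6% of all genes tested that were higher. The part of these cells in the receptor values was not tested. Red blood cell markers summed to 102685 to 255832 in PP and to at most 2022 in any other library. Meninges markers summed to 221 to 2947 in PP, 78 to 155 in DP and 11 to 48 in N. Endothelial and mural markers summed to 547 to 1132, 322 to 330 and 59 to 100. Microglia markers summed to 161 to 228, 104 to 148 and 28 to 39, and oligodendrocyte precursor markers to 267 to 302, 177 to 301 and 22 to 32. The part of such cells in the receptor values was not tested. Replicate 1 of every group stood apart from replicates 2 and 3 on the second principal component (11.6% of the variance), and replicate 1 of PP had the lowest estimated depth, at 12653597 reads.

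Neurons held far more transcript of most of these receptors than either progenitor population. Between N and DP, 8 of 9 genes were higher in N, 0 were lower and Grm3 did not pass the test, against 54% of all 15828 genes tested that changed (27.6% higher, 26.4% lower). Between N and PP, 8 were higher, 0 were lower and Grin3a did not pass, against 63.3% of all genes (32.2% higher, 31.1% lower). Between DP and PP, 1 of 9 was higher (Grm2), 2 were lower (Grin2b and Grin3a) and 6 did not pass, against 24.9% of all genes (13.8% higher, 11.1% lower). With the replicate number as a block, the count between DP and PP was 5, with Grin2d and Grm3 added as higher, and that between N and PP was 9, with Grin3a added; in the same fit 46% and 78.2% of all genes tested passed in these comparisons. Genes were tested on the log2(value + 1) scale if their value reached 10 in at least 3 libraries. Grin2a, Grm5 and Grm7 reached it in N alone and so had to differ between N and the progenitors. Grm2 reached it in 2 DP libraries and 3 N libraries, so it passed the filter only with the N libraries. The counts are therefore given as a description of the 9 genes. In sorted bulk samples, fewer cells with a transcript and less of it per cell cannot be told apart.

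**Figure D1:**
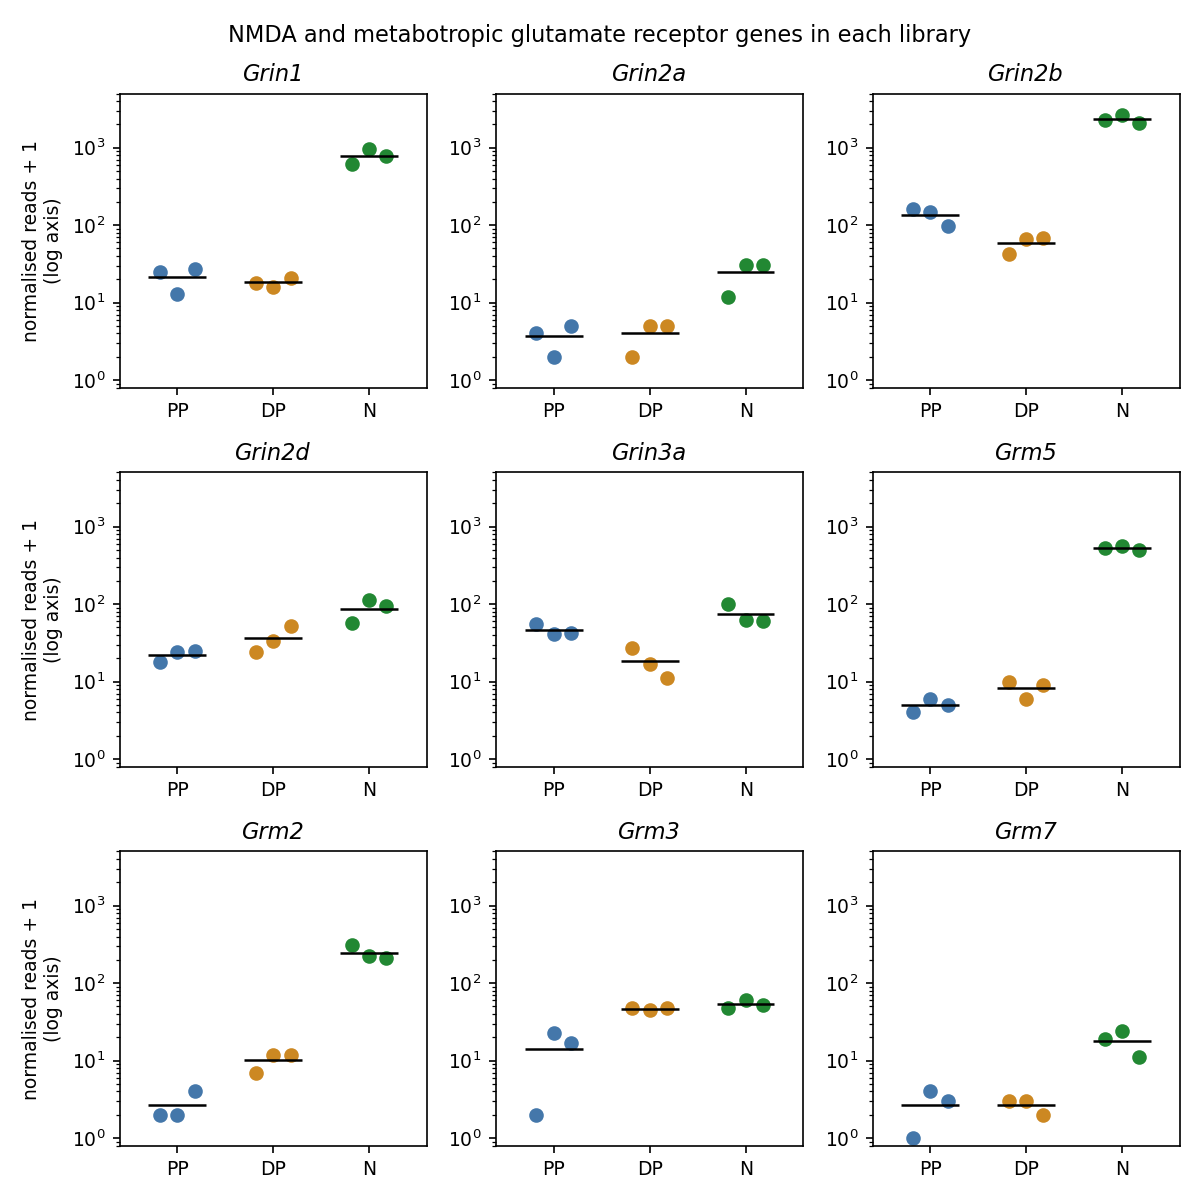
Normalised read counts plus 1 (log axis) of the 9 receptor genes in every library of PP, DP and N; points are libraries 1 to 3 from left to right and lines are means of 3. Points of DP and N meet in the panel of Grm3, where DP sits at 44 to 47 and N at 47 to 60 normalised read counts. In the panel of Grin3a, PP at 40 to 55 and N at 59 to 99 lie close together, and this difference did not pass (adjusted p = 0.15).

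**Figure D2:**
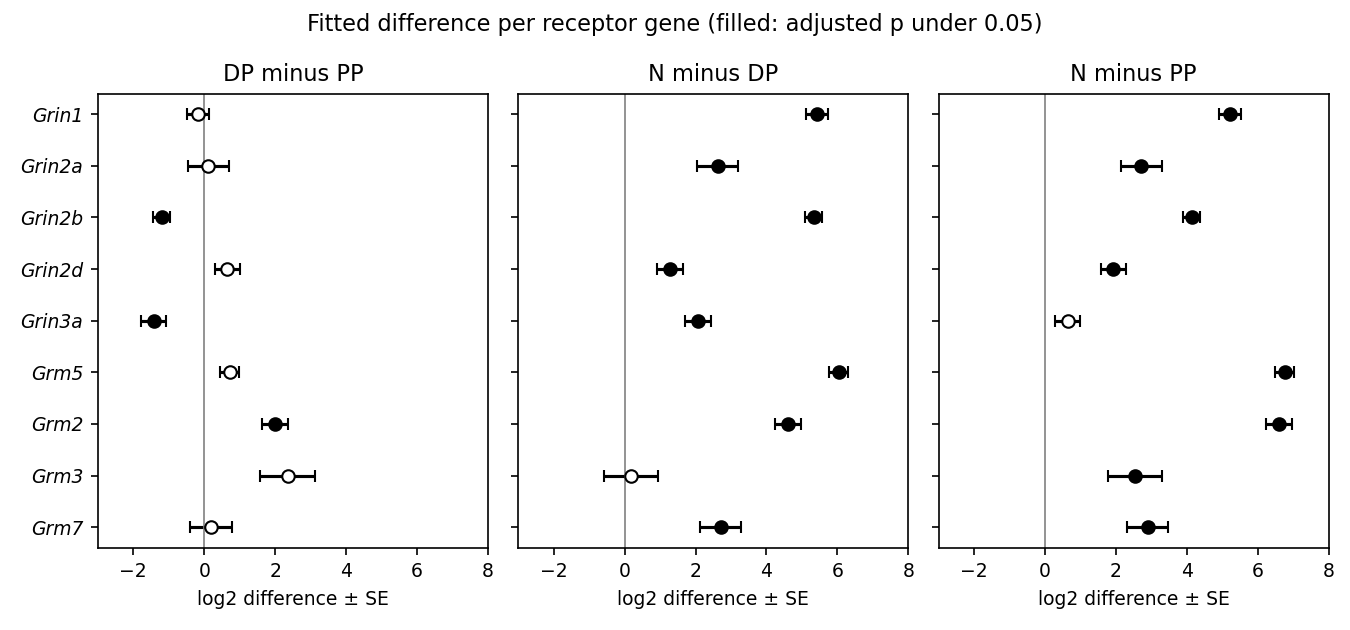
Fitted log2 difference with its standard error for each gene in the 3 comparisons, the NMDA receptor subunits above the metabotropic receptors. Filled points have an adjusted p below 0.05: 3 between DP and PP, 8 between N and DP and 8 between N and PP.

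Grin1, the obligatory subunit, was low in both progenitor populations. It had 24, 12 and 26 normalised read counts in libraries 1, 2 and 3 of PP, 17, 15 and 20 in DP and 614, 966 and 773 in N. The N libraries were far above all others, while DP and PP overlapped. The fold of means was 45.3 between N and DP, with a log2 difference of 5.41 ± 0.31 (SE, adjusted p = 7.58e-07). Between DP and PP the log2 difference was -0.18 ± 0.31 (adjusted p = 0.762), which leaves its sign unsettled: without replicate 3 of PP it was 0.02. An antisense gene, Grin1os, overlaps Grin1 over 1307 exon bases in GENCODE M21 and averaged 1.67 ± 1.53 in PP, 1 ± 1 in DP and 33.7 ± 7.37 in N (SD, n = 3 each). It was higher in N than in DP as well (log2 difference 4.23 ± 0.61, adjusted p = 0.00029). The libraries were strand-specific per the labels, but no source used here gives the strand setting of the counting, so reads of the pair may not be fully separated; the level of Grin1os was a small part of that of Grin1.

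The RefSeq table of GRCm38.p6 promoters held an entry for 5 of the 9 genes (Grin1, Grin2d, Grm2, Grm3 and Grm7), matched by symbol. The files' own build is mm9, so these coordinates are not those of the deposited table. The 250 bases before the start are shown for Grin1 here and for Grm2 further on, the members with a promoter entry that have the highest levels in N. Capitals mark CACGTG, the palindromic E-box letters that bHLH factors such as Usf and Myc bind, found 181 to 176 and 85 to 80 bases before the start. These letters occur in 6.02% of 32851 promoter windows of the same length. The motifs were chosen after the sequences had been seen, and a match describes letters, not binding. The Grin1 window lies at chr2:25319188-25319437 on the minus strand.
Grin1 promoter: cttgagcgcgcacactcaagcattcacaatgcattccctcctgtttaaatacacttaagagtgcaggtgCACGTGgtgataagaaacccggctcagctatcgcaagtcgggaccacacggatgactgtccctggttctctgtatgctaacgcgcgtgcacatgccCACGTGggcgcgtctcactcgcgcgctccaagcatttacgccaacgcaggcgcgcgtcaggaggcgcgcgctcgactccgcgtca

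Grin2b, which encodes the GluN2B subunit of immature receptors, was the most abundant of the 9 genes in N and had a dip at the DP stage. It had 163, 146 and 97 normalised read counts in PP, 42, 65 and 68 in DP and 2302, 2655 and 2101 in N. No DP library reached the lowest PP library, and every N library was above both. The fold of means between DP and PP was 0.431, with a log2 difference of -1.20 ± 0.24 (adjusted p = 0.0064). Between N and DP it was 40.3, with a log2 difference of 5.33 ± 0.24 (adjusted p = 2.14e-07), and between N and PP 17.4 (4.14 ± 0.24, adjusted p = 5.1e-07).

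Grin2d encodes GluN2D, a subunit of embryonic receptors with weak magnesium block and slow deactivation. It had 17, 23 and 24 normalised read counts in PP, 23, 32 and 52 in DP and 56, 111 and 93 in N. The N libraries were above all DP and PP libraries, whereas the DP and PP ranges met at 23. The log2 difference was 1.28 ± 0.36 between N and DP (adjusted p = 0.0136) and 1.93 ± 0.36 between N and PP (adjusted p = 0.00112). The N and DP call was lost without replicate 2 of N (1.07, adjusted p = 0.0566). Between DP and PP the log2 difference of 0.65 ± 0.36 did not pass (adjusted p = 0.235; 0.0429 with the replicate block).

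Grin2a, whose GluN2A subunit takes over in maturing synapses, was barely present at this age. It had 3, 1 and 4 normalised read counts in PP, 1, 4 and 4 in DP and 11, 30 and 30 in N. The lowest N library was above every progenitor library, as it had to be for a gene that passed the filter through N alone. With its sign fixed in this way, the log2 difference was 2.62 ± 0.58 between N and DP (adjusted p = 0.004). It was 2.72 ± 0.58 between N and PP (adjusted p = 0.00256), and both are given as a description. The deposited length of Grin2a is 5296 bases, against 17933 bases of exons in GENCODE M21, and for Grin2b it is 8172 against 24842. Reads from the missing stretches may not have been counted.

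The make-up of the GluN2 transcripts turned over at each stage once Grin2c, the remaining gene of the subfamily, was set beside the members. Grin2c had 25, 33 and 29 normalised read counts in PP, 142, 173 and 190 in DP, and 1, 2 and 2 in N. Levels of different genes are compared here per kb of the deposited length. Per kb, Grin2b made up 70.3, 62.6 and 52.8% of the summed Grin2 level in PP libraries 1 to 3, 13.7, 16.4 and 14.9% in DP, and 96, 92.9 and 92.1% in N. Grin2c made up 17.5, 23 and 25.6% in PP, 75.3, 70.8 and 67.8% in DP, and at most 0.142% in N. Grin2b was thus the larger share in every PP and N library and Grin2c in every DP library, with no overlap between stages for either gene. The difference in mean share between DP and PP was -46.9 percentage points for Grin2b and 49.3 for Grin2c, and between N and DP 78.6 and -71.2 points. Each of these had p = 0.1 in a two-sided exact permutation test, the smallest p that 3 libraries against 3 allow. Grin2d kept a share of 14.1 ± 4.01% in PP and 12.6 ± 2.95% in DP and had 4.78 ± 1.33% in N, although its own level was highest in N; Grin2a held 2.01 ± 1.35, 1.14 ± 0.559 and 1.45 ± 0.677% (SD, n = 3 each).

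The summed Grin2 level was 26.5 ± 3.45, 47.2 ± 9.18 and 307 ± 37.4 normalised read counts per kb in PP, DP and N (SD, n = 3 each). Grin1 relative to that sum was 0.0872, 0.0434 and 0.119 in PP libraries 1 to 3, 0.0468, 0.0319 and 0.037 in DP, and 0.216, 0.285 and 0.286 in N. The N libraries were above all others and DP and PP overlapped. The ratio depends on the gene lengths used: per kb of the longest coding sequence it averaged 0.169, 0.0903 and 0.488 in PP, DP and N.

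Grin3a, which encodes a GluN3 subunit that lowers calcium entry through the receptor and binds glycine, was lowest in DP. It had 55, 40 and 42 normalised read counts in PP, 26, 16 and 10 in DP and 99, 61 and 59 in N. The DP libraries were below all others, and the PP and N ranges lay close together without overlap. The log2 difference between DP and PP was -1.43 ± 0.36 (adjusted p = 0.0184), a call lost without replicate 1 of PP (adjusted p = 0.0547), replicate 2 of DP (0.0577) or replicate 3 of DP (0.0598). Between N and DP it was 2.07 ± 0.36 (adjusted p = 0.000946). Between N and PP it was 0.64 ± 0.36 and did not pass (adjusted p = 0.15; 0.0257 with the replicate block).

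**Figure D3:**
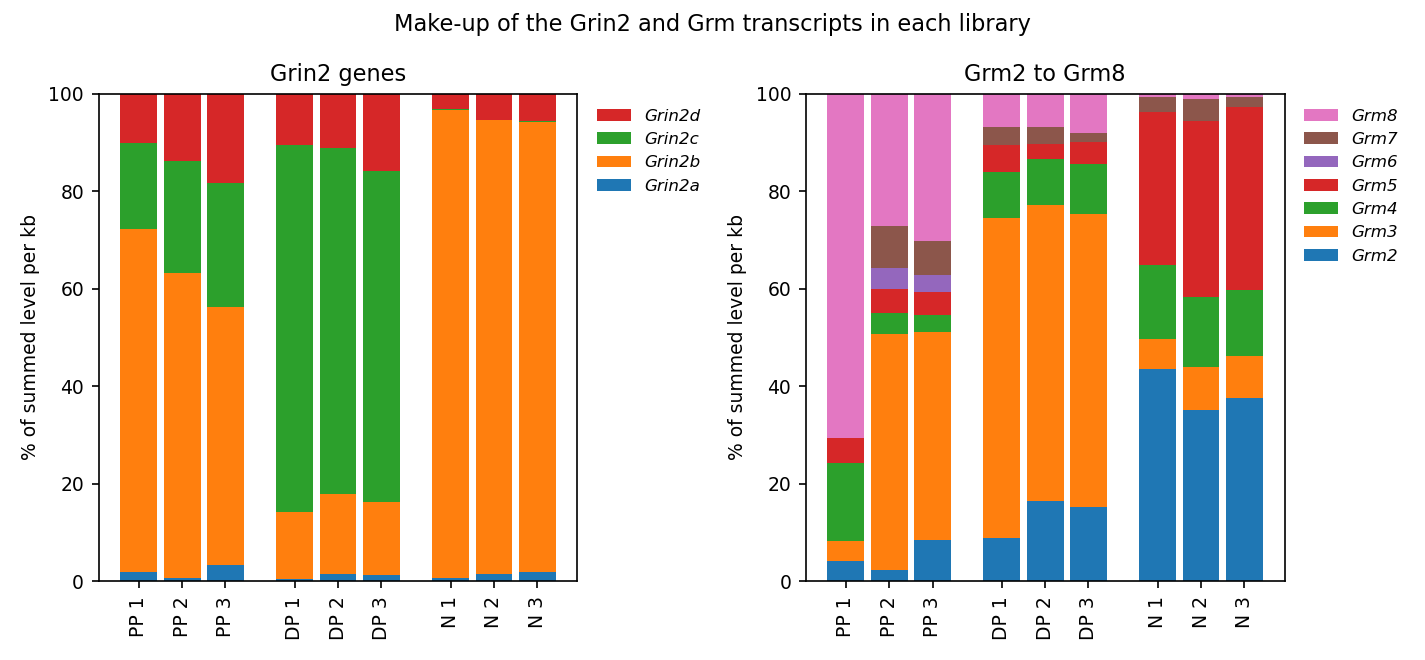
Share of each gene in the summed level per kb of the Grin2 genes (left) and of Grm2 to Grm8 (right) in each library of PP, DP and N. Grin2b holds 52.8 to 70.3% of the Grin2 level in PP, 13.7 to 16.4% in DP and 92.1 to 96% in N; Grm3 holds 60.1 to 65.5% of the summed Grm2 to Grm8 level in DP, and Grm2 with Grm5 the largest shares in N.

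Grm5, the group I receptor mGlu5, had the largest rise of the 9 genes between N and DP. It had 3, 5 and 4 normalised read counts in PP, 9, 5 and 8 in DP and 535, 564 and 501 in N. The N libraries lay within a narrow band. Every progenitor library held fewer than 10, so Grm5 passed the filter through N alone and had to be higher there. The sign of its differences between N and the progenitors was thus fixed, and their adjusted p-values are given as a description. The fold of means between N and DP was 72.7, with a log2 difference of 6.03 ± 0.27 (adjusted p = 2.14e-07), and between N and PP 133 (6.76 ± 0.27, adjusted p = 6.3e-08). Between DP and PP the log2 difference was 0.72 ± 0.27 and did not pass (adjusted p = 0.0871), although it did without replicate 2 of DP (0.0444) or without the intensity trend (0.0478).

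The group II receptors dampen cyclic AMP production. Grm2, encoding mGlu2, was higher at each step and had 1, 1 and 3 normalised read counts in PP, 6, 11 and 11 in DP and 306, 226 and 208 in N. The ranges of the 3 stages did not overlap. Its log2 difference was 4.61 ± 0.37 between N and DP (fold of means 26.4, adjusted p = 6.81e-06) and 1.99 ± 0.37 between DP and PP (adjusted p = 0.00454), a step that rests on a few reads per PP library and came to 1.10 with a pseudocount of 5. Grm3, encoding mGlu3, had 1, 22 and 16 in PP, 47, 44 and 47 in DP and 47, 60 and 51 in N. The DP and N libraries touched at 47 and all lay above PP, where replicate 1 fell far below the other 2 libraries.

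Whether Grm3 passed between DP and PP depended on the libraries and settings used. The log2 difference was 2.35 ± 0.77 (adjusted p = 0.0547). It passed without replicate 1 of PP (1.25, adjusted p = 0.00769), without replicate 2 of PP (3.01, adjusted p = 0.0295), with a pseudocount of 5 (1.76, adjusted p = 0.0256) and with the replicate block (adjusted p = 0.0115). It also passed in replicates 2 and 3 alone (1.23, adjusted p = 0.00966). It did not pass with any other single library left out (adjusted p up to 0.13) or with the libraries of DP and PP alone (adjusted p = 0.106). The authors' deposited table gives a fold of 3.59 for DP over PP with an adjusted p of 0.0011. Between N and PP Grm3 was higher (2.54 ± 0.77, adjusted p = 0.017), but not without replicate 2 of N (adjusted p = 0.0503), and the log2 difference was 1.43 without replicate 1 of PP. Between N and DP its log2 difference was 0.18 ± 0.77 (adjusted p = 0.867).

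In the Grm2 promoter, the window held TTCAGCACC and GGACAGC, which were found in none of the other 4 members' windows. Capitals mark these letters, the left and right parts of the RE1 element bound by the repressor Rest, which silences neuronal genes outside neurons, and GGGCGG, the GC box of Sp factors. In the canonical element these parts lie closer together than here. TTCAGCACC was found 242 to 234 bases before the start and occurs in 0.301% of the 32851 windows; GGACAGC was found 226 to 220 bases before it and occurs in 5.28%. GGGCGG, present in 32.7% of windows, was found 3 times in Grm2, once each in Grm3 and Grm7, and in neither Grin1 nor Grin2d. CAGCTG (13% of windows) and CAGATG (14.4%), further E-box letters, were found in none of the 5. Both strands were searched and no printed motifs overlap. The Grm2 window lies at chr9:106656110-106656359 on the minus strand.
Grm2 promoter: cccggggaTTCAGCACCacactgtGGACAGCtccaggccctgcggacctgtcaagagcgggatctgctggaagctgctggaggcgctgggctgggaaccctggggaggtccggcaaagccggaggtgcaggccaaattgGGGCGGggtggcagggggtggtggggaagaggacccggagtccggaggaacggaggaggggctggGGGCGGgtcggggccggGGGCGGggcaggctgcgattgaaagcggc

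Of the group III genes, Grm7, whose receptor sits at presynaptic release sites, was scarce. It had 0, 3 and 2 normalised read counts in PP, 2, 2 and 1 in DP and 18, 23 and 10 in N. DP overlapped PP. The N libraries were above all others, as they had to be for a gene that passed the filter through N alone. With its sign fixed in this way, the log2 difference of Grm7 was 2.71 ± 0.58 between N and DP (adjusted p = 0.00325). It was 2.90 ± 0.58 between N and PP (adjusted p = 0.00174), and both are given as a description. Grm4 had 6, 3 and 2 in PP, 10, 10 and 12 in DP and 171, 148 and 119 in N, and was higher in N than in DP (3.64 ± 0.34, adjusted p = 1.76e-05). Grm8 ran the other way, with 39, 27 and 25 in PP, 11, 11 and 14 in DP and 11, 20 and 9 in N. Its log2 difference was -1.25 ± 0.34 between DP and PP (adjusted p = 0.0266), which missed the threshold without replicate 1 or 2 of PP or without any single DP library (adjusted p up to 0.0855). Between N and PP it was -1.18 ± 0.34 (adjusted p = 0.0136; 0.0513 without replicate 1 of PP and 0.0515 without replicate 3 of N). The authors' deposited table gives Grm8 a fold of 0.39 for DP over PP and 0.44 for N over PP. Its adjusted p there is 0.11 in each of these comparisons, so neither passes. Grm6, a receptor of retinal bipolar cells, had at most 3 in any library and was not tested.

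The Grm make-up also changed with stage. The summed level of the 7 genes Grm2 to Grm8 was 10.1 ± 2.86, 20.7 ± 0.98 and 190.5 ± 22.9 normalised read counts per kb in PP, DP and N (SD, n = 3 each). In DP, Grm3 held 65.5, 60.8 and 60.1% of that sum. In N it held 7.81 ± 1.39%, and Grm2 and Grm5 held 38.8 ± 4.3 and 34.9 ± 3.19%. In PP the shares of Grm3 (3.96, 48.3 and 42.5%) and Grm8 (70.5, 27 and 30.3%) differed widely between library 1 and libraries 2 and 3, where each share rests on few reads. The difference in mean share between N and DP was -54.3 percentage points for Grm3, 25.3 for Grm2 and 30.5 for Grm5, each with p = 0.1 in a two-sided exact permutation test, the smallest possible. Whether Grm2 or Grm5 leads in N depends on length: undivided, Grm5 held 53% and Grm2 24.3%, and per kb of coding sequence 45.5 and 28.7%.

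Ordered by level per kb, Grin2b led the 9 genes in PP with 16.6 ± 4.19 normalised read counts per kb (SD, n = 3), above Grin2d (3.64 ± 0.646), Grm3 (3.63 ± 3.02), Grin3a (2.89 ± 0.516) and Grin1 (2.13 ± 0.781), whose neighbouring ranges overlapped. Grm7, Grin2a, Grm2 and Grm5 were between 0.607 and 0.496 and also overlapped. In DP, Grm3 led with 12.9 ± 0.484 and its range was clear of Grin2b (7.14 ± 1.74), which overlapped Grin2d (6.08 ± 2.53); the other 6 lay between 2.81 for Grm2 and 0.566 for Grin2a, each overlapping the next. The lead of Grm3 in DP depends on length: undivided, Grin2b averaged 58.3 and Grm3 46 normalised read counts, with overlapping ranges. In N, Grin2b led with 288 ± 34.3, clear of Grin1 (80.9 ± 18.2), Grm2 (74.3 ± 15.7) and Grm5 (66.1 ± 3.91), which overlapped in that order. Grin2d (14.8 ± 4.78) and Grm3 (14.7 ± 1.86) followed, and Grm7 (6.19 ± 2.39), Grin3a (4.63 ± 1.43) and Grin2a (4.47 ± 2.07) were lowest.

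Genes of the NMDA receptor complex and its signalling were mostly higher in N as well. Of 22 scaffold and signalling genes, 21 were tested; between N and DP 18 were higher, 1 was lower and 2 did not pass (median log2 difference 1.54, against -0.01 over all genes tested), and between DP and PP 10 were higher, 3 lower and 8 did not pass (median 0.32, against -0.02). Of all genes tested, 27.6% were higher and 26.4% lower between N and DP, and 13.8% and 11.1% between DP and PP. Shank1, a master scaffold of the postsynaptic density, averaged 593 ± 79.5 normalised read counts in PP, 487 ± 36.2 in DP and 9301 ± 196 in N (log2 difference 4.26 ± 0.11 between N and DP, adjusted p = 4.22e-08). Camk2b, a subunit of calcium/calmodulin kinase II, averaged 17.7 ± 5.69 in PP, 69 ± 22.3 in DP and 3448 ± 665 in N (5.66 ± 0.30, adjusted p = 5.38e-07). Ptpn5, the phosphatase STEP that acts on GluN2B, averaged 34.7 ± 7.23, 101 ± 29.1 and 2130.3 ± 241 in PP, DP and N (4.42 ± 0.23, adjusted p = 5.06e-07).

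The scaffold gene Dlgap2 rose at both steps, averaging 17.7 ± 3.51 in PP, 93 ± 6.56 in DP and 502 ± 85.7 in N (2.41 ± 0.20 between N and DP, adjusted p = 8.79e-06; 2.35 ± 0.20 between DP and PP, adjusted p = 8.04e-05). The kinase subunits did not move together. Camk2a, the best known of them in the adult forebrain, averaged 1397 ± 54.2 in PP, 278 ± 37.6 in DP and 260.3 ± 27.2 in N (log2 difference -2.33 ± 0.13 between DP and PP, adjusted p = 1.13e-05). Camk2d, the gene of the list that was lower in N than in DP, averaged 851 ± 157 in PP, 385 ± 10.4 in DP and 137 ± 17.3 in N (-1.49 ± 0.15 between N and DP, adjusted p = 2.76e-05). Camk2a and Camk2d were named after their values had been seen.

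Among 10 genes of receptor transport and co-agonist supply, 7 were higher in N than in DP, 1 was lower and 2 did not pass (median 1.12). Of all genes tested, 27.6% were higher and 26.4% lower in that comparison. Between DP and PP, 1 of the 10 was higher, 2 were lower and 7 did not pass (median -0.33). This share was near the 24.9% of all genes that changed there. The adaptor Apba1 averaged 80 ± 15.9 normalised read counts in PP, 110.3 ± 17.1 in DP and 1924 ± 117 in N (4.12 ± 0.17 between N and DP, adjusted p = 1.37e-07). Cask and Lin7a, scaffold partners in the carrier complex that moves GluN2B along microtubules, were both higher in N than in DP (1.38 ± 0.14, adjusted p = 2.63e-05, and 2.36 ± 0.19, adjusted p = 6.75e-06). Between DP and PP they parted: Cask averaged 2060 in DP against 1450.3 in PP (0.49 ± 0.14, adjusted p = 0.0284) and Lin7a 49.3 in DP against 116 in PP (-1.24 ± 0.19, adjusted p = 0.00164). Slc6a9, the glycine transporter GlyT1 that clears the co-agonist, was lower at each step, with 412 ± 31.4 in PP, 226 ± 21.5 in DP and 67.3 ± 12.5 in N (-1.74 ± 0.16 between N and DP, adjusted p = 1.83e-05).

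Partners of group I receptors were mixed. Of 17 listed genes 16 were tested. Between N and DP 8 were higher, 5 lower and 3 did not pass (median 0.63). Between DP and PP 6 were higher, 1 was lower and 9 did not pass (median 0.06). Of all genes tested, 54% changed between N and DP (27.6% higher, 26.4% lower). The share was 24.9% between DP and PP (13.8% higher, 11.1% lower). Plcb2 passed the filter through N alone and so had to be higher there. Plcb1, the phospholipase C of the mGlu5 pathway in cortex, was already higher in DP, averaging 122 ± 30.9 normalised read counts in PP, 2022 ± 682 in DP and 3041 ± 142 in N (log2 difference 4.01 ± 0.25 between DP and PP, adjusted p = 2.17e-05; 0.64 ± 0.25 between N and DP, adjusted p = 0.0582). Homer1, which ties group I receptors to intracellular calcium stores, averaged 768 ± 88.7 in PP, 768 ± 40.9 in DP and 1882 ± 86.2 in N (1.29 ± 0.10 between N and DP, adjusted p = 5.97e-06). Ncdn, which binds mGlu5, averaged 3117 ± 213 in N and 1724 ± 122 in DP (0.85 ± 0.10, adjusted p = 7.29e-05). Prkcb, a protein kinase C, was lower at each step, with 1217 ± 148 in PP, 331 ± 78.3 in DP and 127 ± 24.5 in N (-1.37 ± 0.20 between N and DP, adjusted p = 0.000357).

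Of 18 partners and effectors of group II and III receptors, 12 were higher in N than in DP, 2 were lower and 4 did not pass (median 1.58). Between DP and PP 5 were higher, 3 lower and 10 did not pass (median -0.12). Of all genes tested, 54% changed between N and DP (27.6% higher, 26.4% lower). The share was 24.9% between DP and PP (13.8% higher, 11.1% lower). Kcnj6 passed the filter through N alone. Adcy1, a neuronal adenylyl cyclase, averaged 218 ± 13.1 normalised read counts in PP, 190 ± 51.4 in DP and 3549 ± 277 in N (4.25 ± 0.19 between N and DP, adjusted p = 1.95e-07). Kcnj3, a potassium channel subunit opened by G protein beta-gamma dimers, rose at both steps, with 25.7 ± 12.7, 142 ± 26.6 and 745 ± 80 in PP, DP and N (2.40 ± 0.31 between N and DP, adjusted p = 0.000136). Adcy8, another calcium-stimulated cyclase, had 1.67 ± 0.577 in PP, 7.67 ± 2.08 in DP and 72 ± 1.73 in N (3.10 ± 0.31 between N and DP, adjusted p = 2.54e-05). Its libraries held 1, 2 and 2 in PP and 7, 6 and 10 in DP, so it passed the filter only with the N libraries. Gnai2, an inhibitory G protein subunit, was lower at each step, with 9523 ± 896 in PP, 5187 ± 781 in DP and 1955 ± 213 in N (-1.40 ± 0.13 between N and DP, adjusted p = 1.63e-05). Between N and PP, 63.3% of all genes tested changed (32.2% higher, 31.1% lower). In that comparison 18 of the scaffold and signalling genes were higher, 2 lower and 1 did not pass. These counts were 6, 2 and 2 for the transport and co-agonist genes. They were 10, 4 and 2 for the group I partners and 11, 2 and 5 for the group II and III partners.

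**Figure D4:**
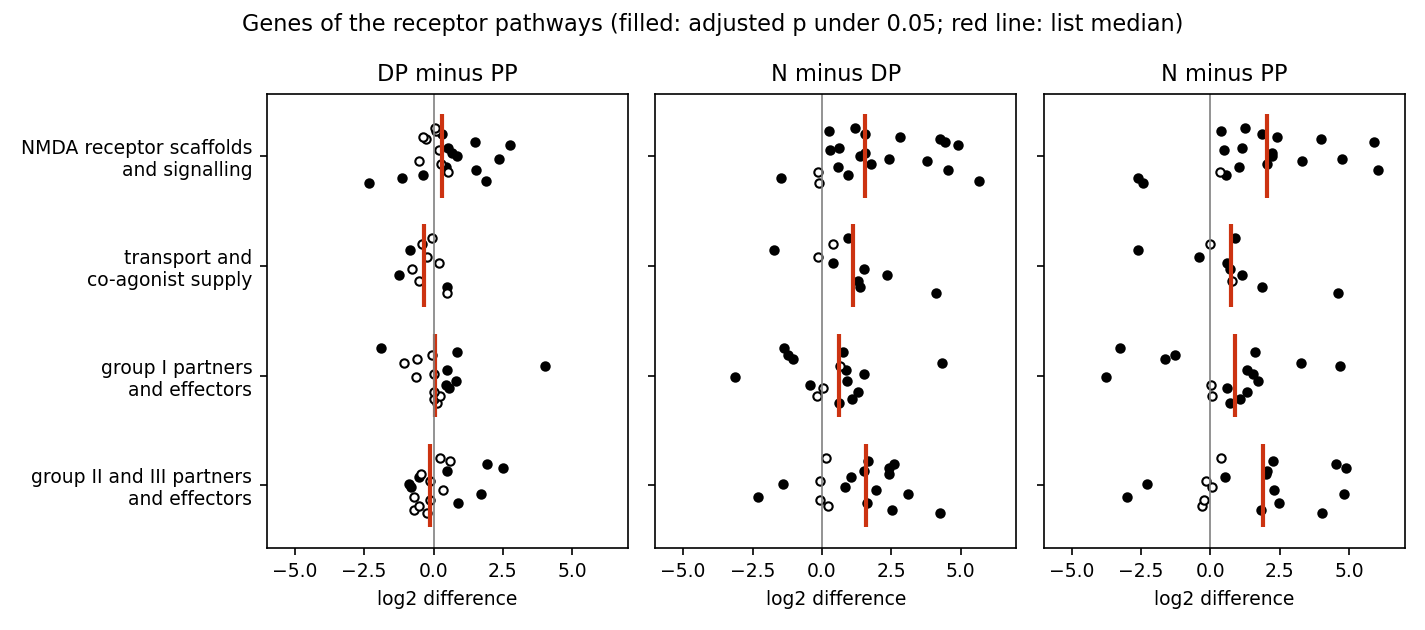
Fitted log2 difference of each gene of the 4 pathway lists in the 3 comparisons, with 1 point per gene; filled points have an adjusted p below 0.05 and red lines are list medians. Between N and DP the medians are 1.54, 1.12, 0.63 and 1.58 from top to bottom, and between DP and PP 0.32, -0.33, 0.06 and -0.12.

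For each member, the genes with the most similar profile over the 9 libraries were taken among genes with a mean of at least 100 (Pearson r of log2 values, which all share the same 3 stages and libraries). Closest to Grin2b was Gria3, an AMPA receptor subunit gene (r = 0.998), with means of 350, 179 and 2578 normalised read counts in PP, DP and N, followed by Mgst3 (0.995) and Kitl (0.994). Closest to Grin1 were Anks6 and the scaffold gene Shank1 (0.996 each). Grm5 was closest to Adora1, the adenosine A1 receptor gene (0.998), and Grm2 to Cnrip1, the gene of a cannabinoid receptor interacting protein (0.997). The likeness was weakest for Grm3, whose closest gene, Mpi, had r = 0.920. The closest genes of Grin2a (Ankra2, 0.981), Grin2d (Fbxo22, 0.984), Grin3a (Usp27x, 0.984) and Grm7 (Mospd3, 0.977) follow members with few reads.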

How the data were processed

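As deposited, each value is a score: a normalised read count rounded to a whole number, given per library for 21210 genes of Ensembl models per the file headers. Per the submitters' processing notes, the build was mm9 and the tools were DESeq 1.8.1, bedtools 2.11, BWA and CASAVA 1.8.0; their roles are not given in the sources used here. Also deposited by the authors were a fold ratio of group means and an adjusted p-value per comparison, and a gene length column. The worth of 1 read per library was estimated from the small whole numbers that occur, giving 12653597 to 27630049 reads; no count model was fitted.

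Values were tested as log2(value + 1) in limma 3.58.1 (R 4.3.3) with a trend on intensity, 3 group means and all 9 libraries in 1 fit. The filter kept 15828 genes that reached 10 in at least 3 libraries, with Benjamini-Hochberg adjustment over all of them and a threshold of 0.05. The p-values measure spread between pools. This fit holds no term for replicate number, so that spread includes shifts shared by libraries of the same number. Python 3.11.15, numpy 2.4.6, pandas 2.3.3, scipy 1.17.1 and matplotlib 3.10.9 did the rest. Exon and coding lengths came from GENCODE M21, joined by gene identifier, and promoters from RefSeq.

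Pairing by replicate number was checked on deviations from the group means: all 9 same-number pairs correlated across genes (r from 0.507 to 0.767), against -0.640 to 0.428 for the other 18 pairs. Libraries of the same number thus varied together. The main fit leaves this pairing out, and the replicate block takes it into account. Alternatives were other pseudocounts, filters and scalings, no trend, the replicate block, fewer libraries and other lengths. The members, lists and tests were chosen with earlier results of these data known. All members are named; up to 4 genes per pathway list with the smallest adjusted p and the 3 most alike genes per member could be named. Some results of the wider receptor family are not reported here.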

Additional observations from a re-analysis of the deposited data

How the results depend on the processing

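With the replicate block, 7282 genes passed between DP and PP, against 3944 without it, and 5 of the 9 receptors, against 3; the block added Grin2d and Grm3 there, Grin3a between N and PP and Grin3b between DP and PP, and changed no other call of the receptor genes. At a filter of 50, 6 receptors were tested between N and PP and 5 passed, since fewer genes were tested. When 1 library was left out, 2661 to 4063 genes passed between DP and PP, 7604 to 8717 between N and DP and 9178 to 10216 between N and PP, and 2 to 4, 7 to 8 and 7 to 8 receptors did. Scaling to equal totals moved the median log2 difference of all genes from -0.01 to -0.22 between N and DP and from -0.02 to -0.30 between N and PP; no called receptor changed direction, and Grm3 (-0.03) and Grm8 (-0.12), not called between N and DP, stood below 0 there but above the shifted median.

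Receptors that changed sign with a library left out were not called either: Grin1 (-0.51 to 0.02), Grin2a (-0.28 to 0.55) and Grm7 (-0.40 to 0.60; -0.50 in replicates 2 and 3 alone) between DP and PP, and Grm8 (-0.24 to 0.30) between N and DP; the cause was not tested. Over the 9 members, 483 recomputed differences kept direction and side of the threshold, 9 gained a call, 5 lost one and 7 changed sign; over the other receptor genes, 207 kept both, 1 gained a call, 12 lost one and 2 changed sign. A pseudocount of 5 lowered the log2 differences of genes with few reads, to 1.10 for Grm2 between DP and PP and to 1.78 for Grin2a and 1.68 for Grm7 between N and DP, and these calls were kept. Grin2a and Grm7 passed the filter through N alone, so the sign of their differences between N and DP was fixed.

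Shares moved with the length used, by construction. Undivided by length, Grin2b held 71.1% in PP and 21.9% in DP, and Grin2c 15.7% in PP, 64% in DP and 0.0678% in N. Of the Grm2 to Grm8 sum, undivided, Grm5 held 7.07, 8.4 and 53% in PP, DP and N; in DP, Grm3 held 52.9, Grm4 12.2 and Grm8 13.7%; in N, Grm2 held 24.3, Grm3 5.25, Grm7 1.66 and Grm8 1.31%. Per kb of coding sequence, an alternative chosen after seeing the data, Grin2b held 19.2% and Grin2c 67% in DP, and Grm5 5.38, 6.35 and 45.5% in PP, DP and N; in DP, Grm3 held 54.7, Grm4 12.2 and Grm8 13.7%; in N, Grm2 held 28.7, Grm3 6.17, Grm4 16.3, Grm7 1.85 and Grm8 1.49%. Grin1 over the Grin2 sum was 0.169, 0.0903 and 0.488 in PP, DP and N per kb of coding sequence, and 0.0667 in DP and 0.317 in N undivided. Shares per protein length were not run. Values of a few reads, as for Grm2 and Grm7 in PP, limit any comparison of the progenitor stages.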
